A study of Mus musculus with 4 samples.

Results

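Transcripts of ferritin and of the proteins that sense iron, load it into ferritin and release it were measured in mouse fibroblasts that overexpressed melanotransferrin and in fibroblasts that carried the empty vector. The genes are Fth1, Ftl1, Ncoa4, Ireb2, Aco1, Fbxl5, Pcbp1 and Pcbp2, and a probe set was taken where the platform annotation assigns it to 1 of these 8 genes and to no other. This gave 13 probe sets of 7 genes, out of 18194 genes with a probe set of their own and 34945 such probe sets. Ftl1 had none, because its 3 probe sets are annotated together with other genes. All lines were derived from LMTK-, a murine fibroblast line, and all carried the expression vector pCI-neo after stable transfection. The clones MTf 4 and MTf 6 carried pCI-neo with the mouse melanotransferrin cDNA, and vector 1 and vector 2 were the vector controls. Each MTf line is 1 clone, so clone and transgene cannot be told apart within a line. Whether the vector lines were clones is not in the labels. Each line was hybridised to 1 Mouse Genome 430 2.0 array, with 2 arrays per group. The labels give no separate cultures within a line, so the p-values reflect the spread among 4 single hybridisations, which may be technical in part.

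Ferritin is a hollow shell of heavy and light chains that stores iron in the cytosol. The heavy chain, encoded by Fth1, oxidises iron as it enters, and the light chain, encoded by Ftl1, helps the mineral core to form. When iron is scarce, iron regulatory proteins, encoded by Aco1 and Ireb2, bind stem-loops called iron-responsive elements, block translation of ferritin mRNA and stabilise transferrin receptor mRNA. Much of this control acts on translation and on protein stability, which transcript signals do not measure.

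Upstream sequences are shown for Fth1, the heavy chain gene, whose signal stood highest in MTf 4, for Aco1, whose signal differed most between the clones, and for Ireb2, which encodes the other iron regulatory protein. They are the 250 bases before a transcription start in RefSeq, build GRCm38.p6, of which 7 of the 8 genes had an entry. For Fth1 the window shown lies before the more downstream of its listed starts. Capitals mark 3 motifs on either strand, which are CCAAT, known as a site of NF-Y, the letters GGGCGG, known as a site of Sp1-type factors, and as the last TGACNNNGC, the core of the antioxidant response element.
Fth1, downstream of its 2 listed starts, chr19:9982396-9982645, strand +: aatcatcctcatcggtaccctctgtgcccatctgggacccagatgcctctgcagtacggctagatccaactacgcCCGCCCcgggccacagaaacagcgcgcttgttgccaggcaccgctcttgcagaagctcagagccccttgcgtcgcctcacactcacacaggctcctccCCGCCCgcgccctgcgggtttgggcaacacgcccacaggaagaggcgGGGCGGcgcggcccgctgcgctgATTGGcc
Aco1, chr4:40143015-40143264, strand +: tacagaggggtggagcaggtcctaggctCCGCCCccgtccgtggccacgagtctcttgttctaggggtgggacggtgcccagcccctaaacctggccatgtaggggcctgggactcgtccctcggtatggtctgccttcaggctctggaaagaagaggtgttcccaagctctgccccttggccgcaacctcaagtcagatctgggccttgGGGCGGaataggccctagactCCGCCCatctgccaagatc
Ireb2, chr9:54863505-54863754, strand +: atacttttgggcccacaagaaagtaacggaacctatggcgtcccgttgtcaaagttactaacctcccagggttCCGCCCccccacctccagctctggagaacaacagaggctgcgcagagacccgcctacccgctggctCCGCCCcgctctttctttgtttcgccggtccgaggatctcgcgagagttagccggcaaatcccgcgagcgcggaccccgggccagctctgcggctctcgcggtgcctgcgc
GGGCGG occurred 3 times in the Fth1 window, 3 times in the Aco1 window and 2 times in the Ireb2 window. CCAAT occurred 1 time in the Fth1 window, beginning 7 bases before the start, and in neither of the other windows. TGACNNNGC occurred in none of the 3. The window before the other listed start of Fth1, not shown, held none of these motifs. The windows shown for Fth1 and Ireb2 lie inside the spans listed for these genes, which begin at bases 9980600 and 54862658. Among 32851 such windows in RefSeq, 32.7% held GGGCGG, 33.8% held CCAAT and 10.2% held TGACNNNGC. A match is a description of the letters, and no motif overlapped another in these 3 windows.

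The values are scaled array signals, and all 4 arrays had the same 2%-trimmed mean of 1000.01. Median signals were 211 in MTf 4 and 209 in MTf 6, against 214 in each vector line. The transgene checked the labels. Meltf, the melanotransferrin gene, gave 1519 and 1885 in MTf 4 and MTf 6, against 265 and 274 in vector 1 and vector 2. The ratio of the means, MTf over vector, was 6.32. Even so, Meltf did not pass the threshold set for the tests below (limma, adjusted p = 0.0903 over all probe sets tested). Of 12 fibroblast markers 9 passed the filter on low signals, and Thy1, Lum and Dcn did not. Of 5 melanocyte markers 0 passed it, and of 8 macrophage markers 4 did. It was passed by 2 of 6 erythroid, 2 of 5 epithelial and 1 of 4 endothelial markers. Passing the filter thus does not by itself mark a cell type. The 3' over 5' signal ratio of Gapdh was 0.681 and 0.669 in the clones, against 0.683 and 0.691 in the vector lines. That of Actb was 1.21 and 1.31 in MTf 4 and MTf 6, against 1.23 and 1.22 in vector 1 and vector 2, highest in MTf 6. The part of these ratios in the results was not tested.

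No ferritin or iron-regulator probe set passed the test between clones and vector lines. Of the 13 probe sets 11 passed the filter, a mean log2(signal + 32) at or above the median, which equals a signal of about 196. By limma with Benjamini-Hochberg adjustment over 22519 probe sets, 0 of the 11 were past the threshold of 0.05, where 0.00444% of all tested probe sets were. At an unadjusted 0.05 the count was also 0 of 11, against 1.90% of all, and the smallest unadjusted p was 0.155, for Pcbp2. All 11 adjusted p-values were 1.00. Estimates, as differences of log2(signal + 32), were higher in the clones for 5 and lower for 6. Their median absolute size was 0.145, as over all probe sets tested. With 2 arrays per group an exact two-sided permutation test cannot go below p = 0.333. The adjusted limma test also missed Meltf, the transgene. A lack of calls, here or in the gene lists below, therefore does not show a lack of change.

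**Figure D1:**
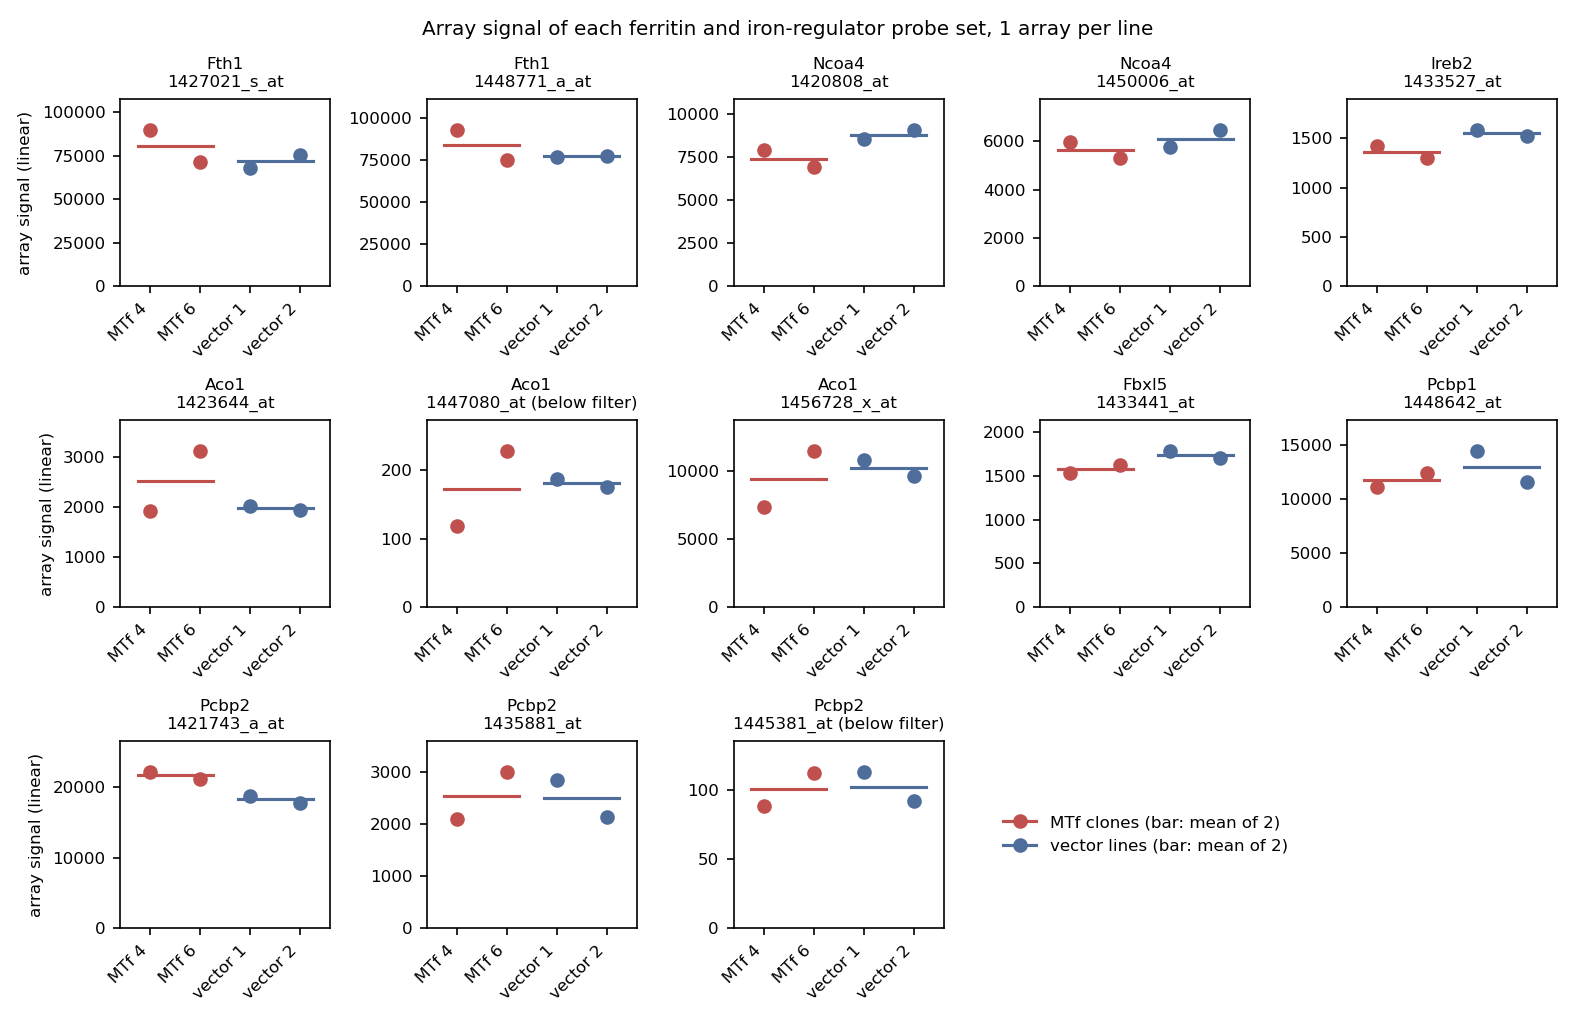
Array signal on a linear axis that starts at 0, for each of the 13 probe sets, with 1 point per line (MTf 4 and MTf 6 in red, vector 1 and vector 2 in blue) and a bar at each group's mean of 2. Fth1 is highest in MTf 4 by both probe sets, Aco1 is higher in MTf 6 than in MTf 4 by all 3, and the groups part for single probe sets of Ncoa4, Ireb2, Fbxl5 and Pcbp2.

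Fth1, the ferritin heavy chain, had its highest signal in MTf 4 by both probe sets, while MTf 6 lay just below or between the vector lines. Probe set 1448771_a_at gave 92945 in MTf 4 and 75250 in MTf 6, against 76902 in vector 1 and 77511 in vector 2. MTf 4 thus stood alone, 1.21-fold above the mean of the others, and MTf 6 was the lowest of the 4. The mean was 84098 ± 12512 in the clones, against 77206 ± 431 in the vector lines (SD, n = 2 each). The log2 difference was 0.12 (SE 0.16), with a 95% interval that reached from 0.837-fold to 1.40-fold.

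Probe set 1427021_s_at of Fth1 gave 89641 in MTf 4 and 71427 in MTf 6, against 68061 in vector 1 and 75252 in vector 2. Again MTf 4 was the highest, 1.25-fold above the mean of the others, while MTf 6 lay between the vector lines. The log2 difference between groups was 0.16 (SE 0.17, 95% interval -0.23 to 0.55). Without MTf 4 the log2 differences were -0.037 and -0.0028 for these probe sets. The suffix s_at marks probes shared by several transcripts in the array's naming, so related sequences may add to this signal.

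The other brightest probe sets of the array were also higher in MTf 4. Among 182 probe sets with a mean signal of at least 50000 that belong to none of the 8 genes, chosen after the data were seen, 176 were higher in MTf 4 than in the mean of the other 3 arrays. Their median log2 shift in MTf 4 was 0.22, against 0.28 for Fth1 by 1448771_a_at, and 41 of the 182 had a shift larger than that of Fth1. In vector 1 the median shift of the same probe sets was -0.18. By 1427021_s_at the shift of Fth1 in MTf 4 was 0.33. With quantile normalization, which gives every array the same distribution, the log2 difference of Fth1 turned to -0.023 by 1448771_a_at. By 1427021_s_at it fell to 0.027 and kept its sign. Whether the shift of bright probe sets bears on Fth1 was not tested.

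Ftl1, the ferritin light chain, could be seen only through probe sets that its pseudogene Ftl1-ps2 shares, so none of the following signals is assigned to it. Probe set 1418364_a_at gave 34411 in MTf 4 and 32725 in MTf 6, against 30218 in vector 1 and 30145 in vector 2. Both clones were above both vector lines, with a log2 difference of 0.15 (SE 0.15) that did not pass the test (limma, adjusted p = 1.00). Probe set 1422302_s_at gave 41031 in MTf 4 and 32892 in MTf 6, against 33092 in vector 1 and 33708 in vector 2. Here MTf 4 was high and MTf 6 was the lowest, the order seen for Fth1 by 1448771_a_at. Whether the MTf 4 shift of bright probe sets, given above for signals of at least 50000, bears on this order was not tested. The remaining probe set, 1422301_at, shared also with the Mir692 genes, gave 2806 and 2197 in MTf 4 and MTf 6, against 2841 and 2696 in vector 1 and vector 2.

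Ncoa4 encodes the receptor that carries ferritin to autophagosomes, so that its iron is released in lysosomes. Probe set 1420808_at gave 7909 in MTf 4 and 6890 in MTf 6, against 8526 in vector 1 and 9054 in vector 2. Both clones lay below both vector lines, at a mean of 7399 ± 720 in the clones, against 8790 ± 373 in the vector lines (SD, n = 2 each). The log2 difference of -0.25 (SE 0.18, 95% interval -0.66 to 0.16) did not pass the test.

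By the other Ncoa4 probe set, 1450006_at, the groups overlapped. Signals were 5956 in MTf 4 and 5312 in MTf 6, against 5759 in vector 1 and 6463 in vector 2. MTf 6 was the lowest and vector 2 the highest line by both probe sets of Ncoa4. The log2 difference was -0.12 (SE 0.18), so the probe sets had the same sign but differed in size.

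Ireb2 encodes iron regulatory protein 2, which is degraded when iron is plentiful. Its probe set gave 1428 in MTf 4 and 1296 in MTf 6, against 1585 in vector 1 and 1525 in vector 2. Both clones lay below both vector lines, and the ratio of the means was 0.876. The mean was 1362 ± 93.2 in the clones, against 1555 ± 42.2 in the vector lines (SD, n = 2 each), and the log2 difference of -0.19 (SE 0.20) did not pass the test.

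Aco1 encodes iron regulatory protein 1, which is a cytosolic aconitase while it holds an iron-sulfur cluster and binds iron-responsive elements without it. Its clones differed more than its groups. Probe set 1456728_x_at gave 7406 in MTf 4 and 11503 in MTf 6, against 10827 in vector 1 and 9634 in vector 2. MTf 4 was low, MTf 6 was the highest line, and the vector lines fell between the clones. The log2 difference between groups was -0.15 (SE 0.24, 95% interval -0.69 to 0.40).

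By probe set 1423644_at of Aco1, MTf 6 stood alone. Signals were 1924 in MTf 4 and 3109 in MTf 6, against 2015 in vector 1 and 1929 in vector 2. MTf 6 was 1.59-fold above the mean of the other 3, and MTf 4 was level with vector 2. The group estimate of 0.31 (SE 0.26) had the opposite sign to that of 1456728_x_at, and neither passed the test. Without MTf 6 the estimate by 1423644_at was -0.034, and without MTf 4 the estimate by 1456728_x_at was 0.17.

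The remaining Aco1 probe set, 1447080_at, was below the filter. It gave 118 in MTf 4 and 228 in MTf 6, against 188 in vector 1 and 176 in vector 2. All 3 probe sets of Aco1 were thus lowest in MTf 4 and highest in MTf 6, by 1.55-fold, 1.62-fold and 1.94-fold on the signals as deposited. The suffix x_at marks probes that may also bind other transcripts in the array's naming, and the probe sets differed in how far MTf 4 lay below the vector lines, with 1924 against 1929 in vector 2 by 1423644_at.

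Aco1 lies on chromosome 4 in GRCm38.p6, and genes of that chromosome were higher as a body in MTf 6. Of the 640 other tested genes there, 80.5% were higher in MTf 6 than in the mean of the other 3 arrays, with a median log2 shift of 0.29. The 24 of them that begin within 2 Mb of Aco1, a window chosen after the data were seen, had a median shift of 0.32. Aco1 itself was shifted by 0.33 by 1456728_x_at and by 0.66 by 1423644_at in MTf 6. In MTf 4 the chromosome's median shift was -0.07, while Aco1 was shifted by -0.52 and -0.25 by the same probe sets. Whether the shift of the chromosome bears on Aco1 was not tested. For the chromosomes of the other 6 genes the median shift in MTf 6 lay between -0.06 and -0.05.

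**Figure D2:**
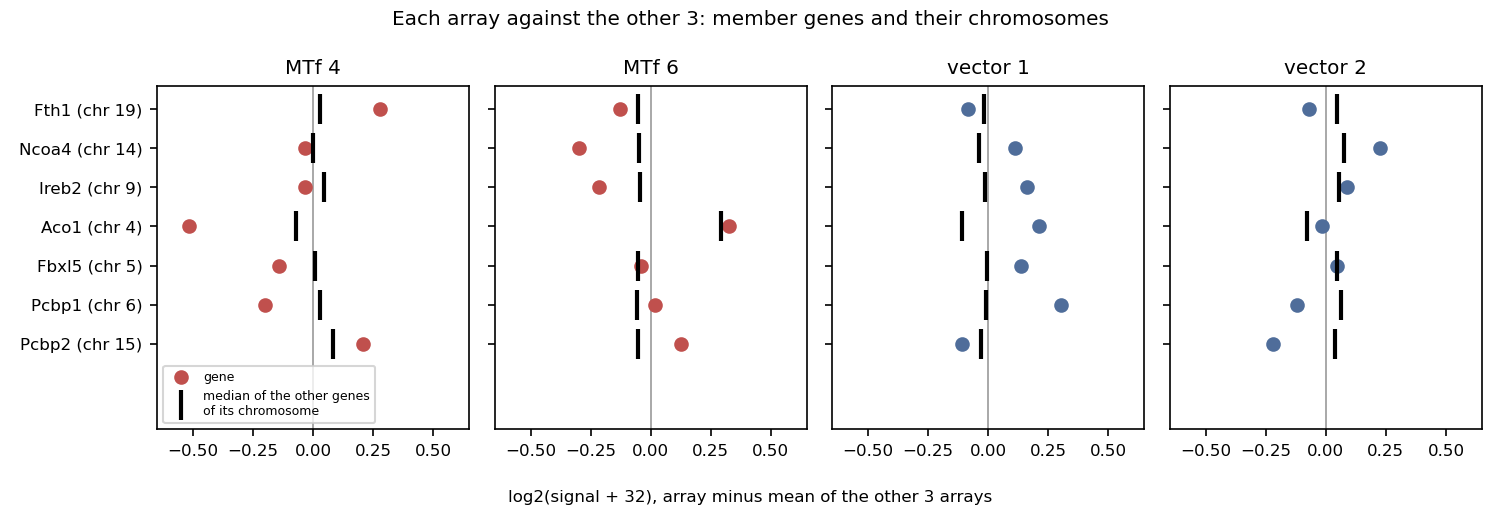
For each line, log2(signal + 32) minus the mean of the other 3 arrays, for 7 genes by their brightest probe set (points) and for the other tested genes of the same chromosome (bar, median). In MTf 6 the Aco1 point, at 0.33, sits close to the chromosome 4 bar at 0.29, while in MTf 4 Aco1, at -0.52, sits far below its chromosome's bar at -0.07.

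Fbxl5 encodes the iron-binding subunit of the ubiquitin ligase that marks iron regulatory proteins for degradation. Its probe set gave 1538 in MTf 4 and 1626 in MTf 6, against 1784 in vector 1 and 1702 in vector 2. Both clones lay below both vector lines, and the ratio of the means was 0.908. The log2 difference of -0.14 (SE 0.20, 95% interval -0.60 to 0.33) did not pass the test.

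Pcbp1 and Pcbp2 encode RNA-binding proteins that also act as chaperones, delivering iron to ferritin. The Pcbp1 probe set gave 11077 in MTf 4 and 12420 in MTf 6, against 14399 in vector 1 and 11553 in vector 2. Vector 1 stood above the other 3 lines, and the groups overlapped. The log2 difference was -0.14 (SE 0.19), and without vector 1 it was 0.022.

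Pcbp2 had the smallest p of the 7 genes with a probe set, by 1421743_a_at. This probe set gave 22146 in MTf 4 and 21217 in MTf 6, against 18785 in vector 1 and 17730 in vector 2. Both clones were above both vector lines, at a mean of 21682 ± 657 in the clones, against 18258 ± 746 in the vector lines (SD, n = 2 each). The difference, a log2 value of 0.25 (SE 0.16, 95% interval -0.12 to 0.61), did not pass the test (limma, adjusted p = 1.00).

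The other probe sets of Pcbp2 did not part the groups. By 1435881_at signals were 2099 in MTf 4 and 3005 in MTf 6, against 2856 in vector 1 and 2148 in vector 2. MTf 6 and vector 1 were high and MTf 4 and vector 2 low, with a log2 difference of 0.02 (SE 0.25). The dim probe set 1445381_at, below the filter, had the same pairing of lines, at 89.0 in MTf 4 and 112.6 in MTf 6, against 113.3 in vector 1 and 92.0 in vector 2. This pairing was not particular to Pcbp2. The median absolute log2 difference over all tested probe sets was 0.20 between MTf 6 and vector 1. It was 0.21 between MTf 4 and vector 2, against 0.29 between the clones and 0.24 between the vector lines.

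For most of these probe sets the clones or the vector lines differed at least as much as the groups did. The groups did not overlap for 4 of the 11 tested, 1 higher and 3 lower in the clones, against 25.8% of all tested probe sets in either direction, 12.2% higher and 13.6% lower. For the same 4, of Ncoa4, Ireb2, Fbxl5 and Pcbp2, the group difference was larger than the difference between the clones and that between the vector lines. Over all tested probe sets this held for 15.9%. Between MTf 4 and MTf 6, 2 of the 11 probe sets differed at least 1.5-fold, both of Aco1, where 19.5% of all did. MTf 6 differed that much from vector 1 and from vector 2 for 1 probe set each, 1423644_at of Aco1, where 11.0% and 16.5% of all did. MTf 4 did so for 0 of the 11 against vector 1, where 17.7% of all did, and for 0 against vector 2, where 11.2% did. Between vector 1 and vector 2 this held for 0 of the 11, where 14.4% of all did. These single-array pairs have no replicate check.

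**Figure D3:**
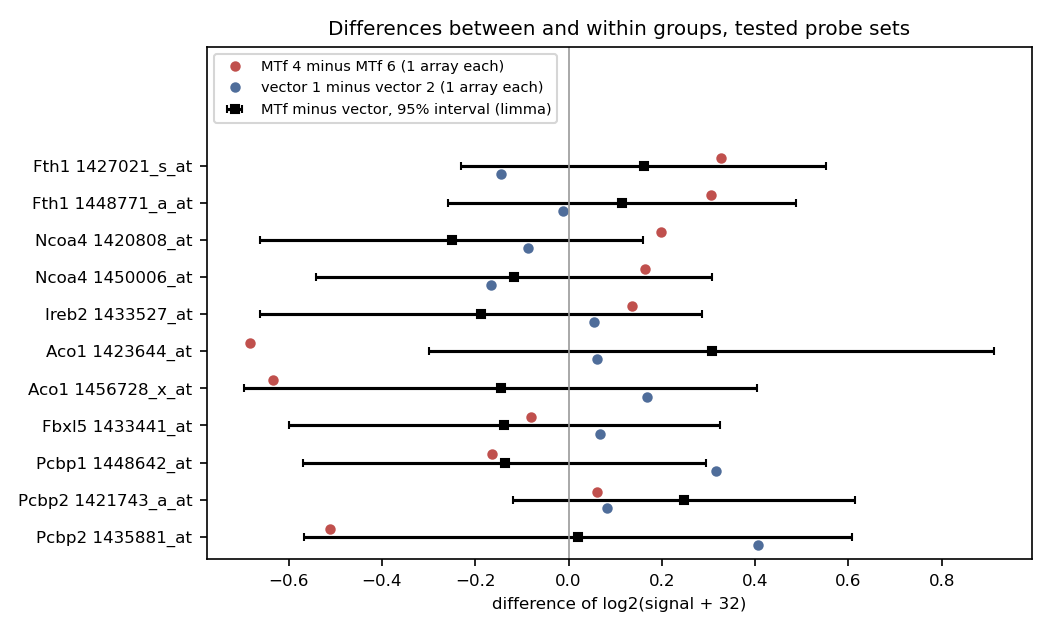
Differences of log2(signal + 32) for the 11 tested probe sets: MTf minus vector with its 95% interval from limma (black squares), MTf 4 minus MTf 6 (red) and vector 1 minus vector 2 (blue). Every interval crosses 0, the widest upper bound is 0.91 for Aco1 by 1423644_at, and the Aco1 clones lie further apart than any group difference.

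The genes that act with these proteins showed no call either. Of 64 genes in 6 lists, 52 were tested, and these fall in 5 of the lists. By limma over all probe sets 0 of the 52 were past the threshold, where 0.00444% of all tested probe sets were. At an unadjusted 0.05 the count was also 0 of the 52, against 1.9% of all tested probe sets. Of the 52 genes, each by the brightest of its probe sets, 23 had higher and 29 lower estimates in the clones. Among all 10682 genes tested 49.0% had higher estimates, with a median log2 difference of -0.01.

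Of the mRNAs with iron-responsive elements besides ferritin, 4 were tested, 1 higher and 3 lower. Their median log2 difference was -0.05. Slc11a2, the divalent metal transporter, gave 935 and 663 in MTf 4 and MTf 6, against 897 and 1049 in vector 1 and vector 2, and Cdc14a, a phosphatase, had a log2 difference of 0.14. Of the ubiquitin ligase partners of Fbxl5, 5 were tested, 1 higher and 4 lower, with a median of -0.05. Nedd8, the modifier that activates cullins, had a log2 difference of -0.15 and Cand1, which exchanges their substrate receptors, of 0.10.

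Autophagy factors, through which Ncoa4 delivers ferritin, numbered 21 tested, 11 higher and 10 lower. Their median log2 difference was 0.05. Atg9a, a membrane protein of the growing autophagosome, gave 857 and 905 in MTf 4 and MTf 6, against 697 and 661 in vector 1 and vector 2, a log2 difference of 0.36 (SE 0.22). Pik3c3, the lipid kinase that starts the membrane, gave 602 and 476 in MTf 4 and MTf 6, against 789 and 648 in vector 1 and vector 2. For both genes, chosen for the smallest p in the list, the groups did not overlap, as for 25.8% of all tested probe sets. Neither passed the test.

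Of the cytosolic iron chaperones, iron-sulfur assembly factors and Pcbp relatives, 13 were tested, 7 higher and 6 lower. Their median log2 difference was 0.01. Ciao2a, an assembly factor known to act on iron regulatory protein 1, gave 7325 and 7272 in MTf 4 and MTf 6, against 8742 and 9476 in vector 1 and vector 2. Its groups did not overlap, as held for 25.8% of all tested probe sets. Its log2 difference of -0.32 (SE 0.17, 95% interval -0.71 to 0.08) did not pass. Ciapin1, which passes electrons to that assembly pathway, gave 2594 and 3287 in MTf 4 and MTf 6, against 5392 and 3228 in vector 1 and vector 2, so its groups overlapped.

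Of the regulators of ferritin transcription and of the redox state of iron regulatory proteins, 9 were tested, 3 higher and 6 lower. Their median log2 difference was -0.05. Mafk and Mafg, small Maf partners of NRF2, had log2 differences of -0.38 and 0.15. Of 4 ferritin paralogs 2, Ftmt and Fthl17a, had a probe set of their own, and 0 passed the filter.

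**Figure D4:**
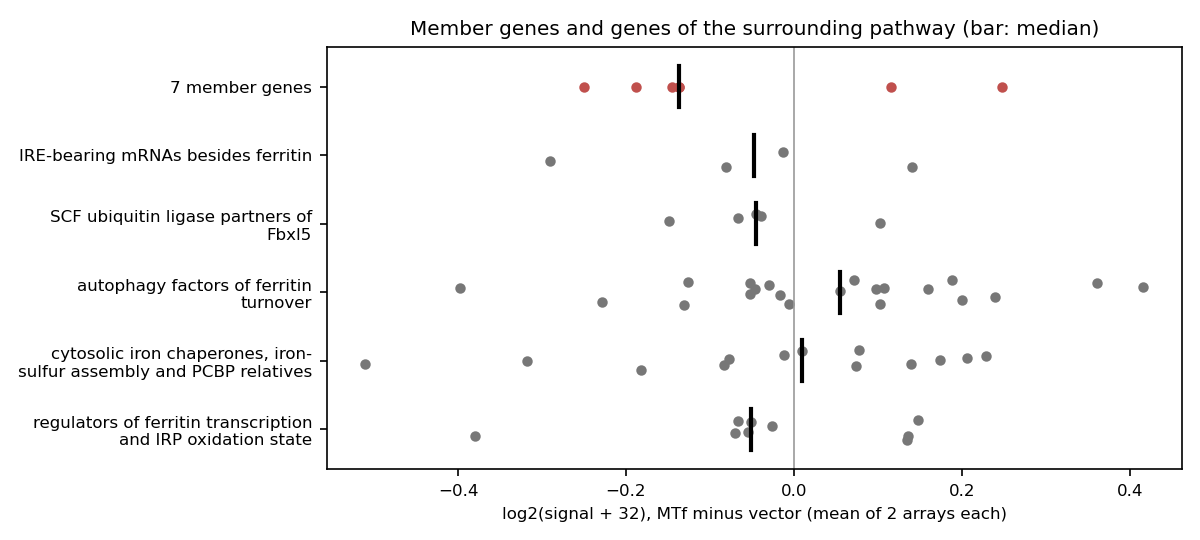
MTf minus vector differences of log2(signal + 32) for the 7 genes with a probe set (red) and for the tested genes of 5 pathway lists (grey), 1 point per gene by the brightest of its probe sets, with a bar at each median. All points lie between -0.51 (Ciapin1) and 0.42 (Atg5), and the medians lie between -0.14 (the 7 genes) and 0.05 (autophagy factors).

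Aco1 had the widest range over the 4 arrays among the 7 genes, by the brightest of its probe sets, 1456728_x_at. The tested genes with the closest profile, by the root mean square difference of centred log2 values over the 4 arrays, were Brix1 at 0.0045, Nip7 at 0.013 and Phf5a at 0.016. The median over all 10681 other genes was 0.31. Brix1 and Phf5a lie on chromosome 15 and Nip7 on chromosome 8, while Aco1 lies on chromosome 4. Brix1 gave 6826 and 10636 in MTf 4 and MTf 6, against 10064 and 8895 in vector 1 and vector 2, the same order of lines as Aco1. With 4 arrays and this many genes close matches are easily found, and this profile is that of the x_at probe set.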

How the data were processed

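The data are the series' table of 45101 probe sets on 4 arrays, of which 64 are controls. Each deposited value is a linear intensity, 1 summary signal per probe set and array, from GCOS 1.3 according to the submitters' processing notes. The software's settings were not given in the sources used here. Detection calls were not part of the table used. Genes came from the platform annotation, and chromosomes and current symbols from a gene table of GRCm38.p6.

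Signals were used as deposited and converted to log2(signal + 32), which shrinks differences of dim probe sets. Those with a mean on that scale at or above the median were tested, 22519 in all, with limma 3.58.1 in R 4.3.3 (lmFit, eBayes with a trend), MTf minus vector, Benjamini-Hochberg adjustment over all of them and a threshold of 0.05. Intervals are 95% intervals of that fit. The number of arrays limits the precision. Where a gene is given by 1 probe set, this is its brightest, with the highest mean log2 value. Named genes were all 8 genes of the set with every probe set, Meltf, the 2 genes of each pathway list with the smallest p and the 3 genes closest in profile to the gene with the widest range. Atg5 is named besides as the end of a range. The genes, the lists and the tests were chosen with earlier results of these data known. A planned ratio of Fth1 to Ftl1 was left out, since no probe set is assigned to Ftl1 alone. In all 9 alternatives were run, besides leaving out each array and 1 added after the data were seen.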

Additional observations from a re-analysis of the deposited data

Results flagged for a closer look

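A probe set that the report's tests do not assign to any gene, 1418364_a_at, shared by Ftl1 and its pseudogene Ftl1-ps2, gave more signal in each clone than in either vector line. The lower clone, MTf 6 at 32725, was 1.08-fold above the higher vector line, vector 1 at 30218. Of the other 2 probe sets that Ftl1 shares, neither parted the groups. Of all tested probe sets 12.2% were higher in both clones, so 1 of 3 does not set these apart.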

How the results depend on the processing

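No probe set of the 7 genes was called under any of the alternatives run, with 0 called without any 1 array, and the pathway lists had 0 calls without the filter too. Signs held under both other offsets, without the filter, under median scaling and without the trend for all 11 tested probe sets. Under quantile normalization the log2 difference of Fth1 by 1448771_a_at turned to -0.023, and 10 signs held. For Aco1 the sign also turned with the median over its tested probe sets (0.081) and with its other tested probe set (0.31, chosen after seeing the data). With 1 array left out in turn, 7 of 44 estimates turned sign. The ranges were -0.037 to 0.27 for Fth1, -0.46 to 0.17 for Aco1, -0.30 to 0.022 for Pcbp1, -0.35 to -0.15 for Ncoa4, -0.26 to -0.12 for Ireb2, -0.18 to -0.10 for Fbxl5 and 0.21 to 0.29 for Pcbp2. For the other tested probe sets they were -0.0028 to 0.32 for Fth1, -0.034 to 0.65 for Aco1, -0.24 to 0.28 for Pcbp2 and -0.20 to -0.034 for Ncoa4. Each such fit assumes that the lone array of its group varies like the other group. Adjusted p-values of these probe sets lay between 0.963 and 1.00 under the other offsets, without the filter, under both other scalings, without the trend and with 1 array left out. Without variance moderation the count of calls was the value compared, and the medians over probe sets have no p. Calls over all probe sets numbered 1, against 0 without the filter, without the trend or without variance moderation, and 2 to 25 with 1 array left out. The cause of these differences was not tested. No paired analysis was possible because the groups share no replicate number.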
